A study of Mus musculus with 23 samples.

Results

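Cyclins are the regulatory partners of the cyclin-dependent kinases (CDKs), and 8 genes that encode the cyclins of the mammalian cell cycle were examined in Kdm2b fl/fl mouse embryonic stem cells (ESCs): Ccnd1, Ccnd2, Ccnd3, Ccne1, Ccne2, Ccna2, Ccnb1 and Ccnb2. They are 8 of the 23369 gene names in the deposited RNA-seq tables, taken by name with no threshold on a measured value, at a time when earlier results of these data were known. Each had 1 row in each table, none had a failed quantification, and all 8 passed the filter on low values that left 12997 genes for testing.

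D-type cyclins bind CDK4 and CDK6 and couple growth signals to entry into the cycle, where they phosphorylate the retinoblastoma protein and its relatives. E-type cyclins activate CDK2 at the start of DNA synthesis, cyclin A2 works with CDK2 in S phase and with CDK1 afterwards, and B-type cyclins drive CDK1 into mitosis. Mouse ESCs are known for a short G1 phase, high cyclin E activity and little reliance on D-type cyclins.

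The study asked what follows when KDM2B loses its CpG-island-binding ZF-CxxC domain. PolyA-selected RNA was sequenced from 3 samples labelled untreated and 3 labelled as treated with tamoxifen (800 nM 4-hydroxytamoxifen in the sample labels, 800 µM in the text of the series) for 72 hr, at passages 10 to 20. Both groups carry loxP sites in both Kdm2b alleles and a Cre fused to the oestrogen receptor at Rosa26, which tamoxifen activates, so the comparison holds the drug and active Cre together with the deletion, and these cannot be told apart. The labels name the line MS12, both groups were grown on feeder fibroblasts and settled overnight without them before treatment, and the control was not treated with tamoxifen. The names of the deposited files read opposite to the sample labels in all 6 samples; the labels were followed, and the other reading would turn the sign of every difference given here. Kdm2b itself was at 27.0, 21.5 and 27.7 FPKM (fragments normalised to transcript length and to sequencing depth) in untreated replicates 1, 2 and 3 and at 19.9, 21.9 and 25.0 FPKM in tamoxifen replicates 1, 2 and 3. These groups overlapped, with a log2 fold change of -0.19 (SE 0.210, limma adjusted p = 0.999). This value spans the whole gene, of which the deletion removes an exon, so it neither checks the labels nor measures the deletion.

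The 2 B-type genes and Ccne1 show how the upstream sequence of these genes differs, and are printed because the mitotic and G1/S cyclins are set side by side below. Of the 8 genes, 4 had an entry in the RefSeq promoter table (GRCm38.p6), with 5 transcription starts: Ccnd3, Ccne1, Ccnb1 and Ccnb2. Ccnd1, Ccnd2, Ccne2 and Ccna2 had none. The 250 bases that precede the start were located by exact match in mm9 and are written 5′ to 3′ on the strand of the gene, with each CCAAT, the box bound by NF-Y, in capitals. The windows lie on the minus strand at chr13:101556442-101556691 for Ccnb1, chr9:70269362-70269611 for Ccnb2 and chr7:38892510-38892759 for Ccne1.
Ccnb1: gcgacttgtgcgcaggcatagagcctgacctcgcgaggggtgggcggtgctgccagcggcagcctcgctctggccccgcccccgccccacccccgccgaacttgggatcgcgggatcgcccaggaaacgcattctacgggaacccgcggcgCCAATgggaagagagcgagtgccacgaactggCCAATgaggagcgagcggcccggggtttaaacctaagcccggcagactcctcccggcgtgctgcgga
Ccnb2: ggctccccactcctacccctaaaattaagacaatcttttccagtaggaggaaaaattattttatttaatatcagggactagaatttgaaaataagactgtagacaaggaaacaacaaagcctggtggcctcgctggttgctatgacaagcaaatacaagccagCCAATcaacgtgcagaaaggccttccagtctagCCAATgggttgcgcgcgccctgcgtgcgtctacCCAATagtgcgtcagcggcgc
Ccne1: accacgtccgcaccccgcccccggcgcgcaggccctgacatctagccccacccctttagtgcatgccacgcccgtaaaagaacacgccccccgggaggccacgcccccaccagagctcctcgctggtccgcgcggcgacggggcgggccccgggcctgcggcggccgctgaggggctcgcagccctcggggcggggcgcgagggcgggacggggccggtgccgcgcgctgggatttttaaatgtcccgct
Both strands were searched for the letters CCAAT. They were also searched for a form of the cell cycle homology region spelled TTTGAA, for the GC box spelled GGGCGG, and for E2F forms spelled TTTCCCGC or with a change in the middle as TTTGGCGC. In these windows no match overlapped another. Ccnb1 held 2 CCAAT boxes, starting at positions -99 and -67 from the transcription start. Ccnb2 held 3, at -87, -54 and -21, and also TTTGAA at -167. Ccne1 held 0 CCAAT boxes and 4 GC boxes, where Ccnb1 held 3 GC boxes and Ccnb2 held 0, and its window was 76% G or C against 69.6% for Ccnb1 and 47.6% for Ccnb2. Of the 2 starts of Ccnd3, the upstream one held 0 CCAAT boxes and the other held 1, at -108. Over all 32851 windows of the table, 33.8% held CCAAT, 10.1% held it at least 2 times and 2.79% at least 3 times, while TTTGAA was present in 16.0% and GGGCGG in 32.7%. The E2F form TTTCCCGC was present in 0.895% of windows and the other form in 0.417%, and neither was found in the 5 windows of the cyclins.

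Within the untreated samples the cyclins fell into 6 abundant genes and 2 scarce ones. On the FPKM scale, which is per length, the untreated mean was 95.4 ± 7.75 FPKM (SD, n = 3, as for the means that follow) for Ccne1, 95.02 ± 24.8 FPKM for Ccnd3, 94.8 ± 14.4 FPKM for Ccnb1, 83.4 ± 29.7 FPKM for Ccnb2, 72.1 ± 13.3 FPKM for Ccna2 and 66.0 ± 16.6 FPKM for Ccnd1. The sample ranges of neighbours in this order overlapped throughout, so the order of neighbours was not resolved. Untreated Ccne1 (86.9 to 102.0 FPKM) lay wholly above Ccna2 (56.8 to 80.3 FPKM) and Ccnd1 (48.8 to 82.0 FPKM). In the order of means Ccnd2 followed at 12.5 ± 6.49 FPKM, with no overlap with Ccnd1. Ccne2 had a mean of 6.39 ± 2.78 FPKM and overlapped Ccnd2 in range, although it lay below Ccnd2 in all 3 untreated samples. Among all tested genes the untreated means of the 6 abundant cyclins stood at the 91.2 to 94.2 percentiles, that of Ccnd2 at the 56.9 percentile and that of Ccne2 at the 40.0 percentile. In these bulk samples, fewer cells in a phase of the cycle and less RNA per cell cannot be told apart.

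Among the D-type cyclins, Ccnd1 and Ccnd2 had lower values in tamoxifen than in untreated samples of the same replicate number, and Ccnd3 had higher ones. Ccnd2, which lies on chromosome 6 (127075727 to 127101066 in mm9, as are all positions of genes below), passed the test when replicate numbers were held as a block and did not without it. Ccnd2 was at 5.41, 14.0 and 18.1 FPKM in untreated replicates 1, 2 and 3 and at 2.35, 9.46 and 12.1 FPKM in tamoxifen replicates 1, 2 and 3. The groups overlapped, since both replicate 1 samples lay below all others, and within a number the tamoxifen sample was at 0.435, 0.678 and 0.666 times the untreated one. The log2 fold change, tamoxifen minus untreated, was -0.77 in both limma fits, with an SE of 0.639 and adjusted p = 0.999 without the block and an SE of 0.146 and adjusted p = 0.0203 with it. The call was lost with the block when replicate number 2 was left out (log2 fold change -0.87, adjusted p = 0.107) or the values were scaled to TPM (-0.67, adjusted p = 0.0578), and without the block leaving out tamoxifen replicate 1 brought the log2 fold change to -0.06. The gene that overlaps the Ccnd2 locus in the tables, 9330179D12Rik, was listed at 0 in all 6 samples.

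**Figure D1:**
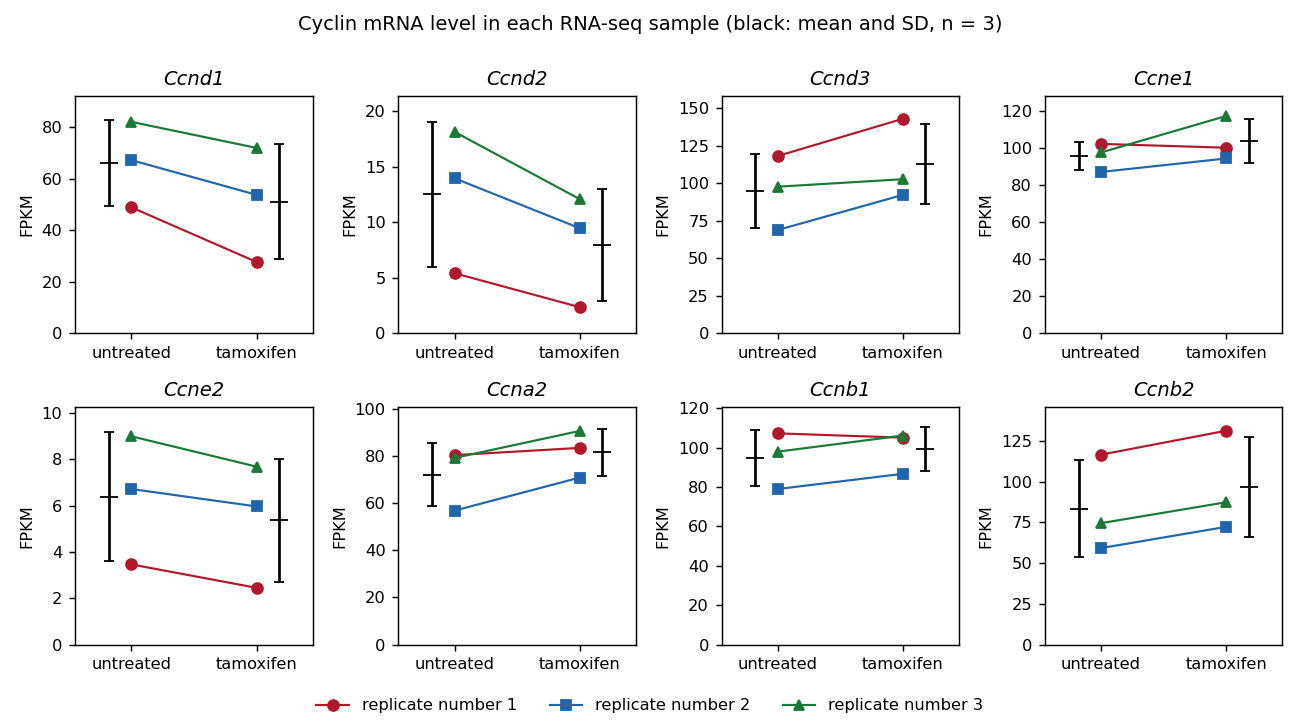
Level of each cyclin (FPKM, linear axis from 0) in the untreated and tamoxifen samples, with a line joining samples of the same replicate number and the mean and SD of each group (n = 3) in black at the sides. Ccnd1, Ccnd2 and Ccne2 run downward and Ccnd3, Ccna2 and Ccnb2 upward within all 3 numbers, and the groups overlap in all 8 panels.

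Ccnd1 (chromosome 7, 152115836 to 152125830) had 48.8, 67.2 and 82.0 FPKM in untreated replicates 1, 2 and 3 and 27.7, 53.7 and 71.9 FPKM in tamoxifen replicates 1, 2 and 3. Its pattern over samples was like that of Ccnd2, with replicate number 1 low in both groups, and the groups overlapped. For Ccnd1 the log2 fold change was -0.44 (SE 0.367, limma adjusted p = 0.999) and did not pass with the block either (SE 0.131, adjusted p = 0.0718). Ccnd3 (chromosome 17, 47642000 to 47736637) was at 118.3, 68.9 and 97.8 FPKM in untreated and at 143.1, 92.4 and 102.8 FPKM in tamoxifen replicates 1, 2 and 3. Here replicate number 1 was high in both groups, and the tamoxifen sample lay above its untreated counterpart in 3 of 3 numbers. The log2 fold change of 0.26 (SE 0.284, limma adjusted p = 0.999; SE 0.101 and adjusted p = 0.140 with the block) did not pass the test. The Ccnd3 locus overlaps that of Bysl, and whether strand was used in the authors' counting is not given in the sources used here. Bysl had 0.20 to 0.26 higher log2 values in tamoxifen within each of the 3 numbers.

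The sum of the 3 D-type genes and its composition were also compared, and no share passed its exact test, which 3 against 3 samples could not do at 0.05. Summed D-type FPKM was 172.6, 150.0 and 198.0 in untreated and 173.2, 155.5 and 186.8 in tamoxifen replicates 1, 2 and 3. Ccnd3 supplied 68.6%, 45.9% and 49.4% of this sum in untreated and 82.7%, 59.4% and 55.0% in tamoxifen replicates 1, 2 and 3. Its share was higher in tamoxifen within 3 of 3 numbers, by 14.1, 13.4 and 5.63 percentage points, although the groups overlapped. The mean difference of 11.1 percentage points did not pass the exact permutation test (two-sided p = 0.5, where 3 against 3 samples can reach 0.1). Permuting signs within replicate numbers gave an exact p of 0.25, the smallest that 3 pairs can give. The share of Ccnd1 was 28.3%, 44.8% and 41.4% in untreated and 16.0%, 34.5% and 38.5% in tamoxifen (mean difference -8.50 percentage points, exact permutation p = 0.4). That of Ccnd2 was 3.13%, 9.30% and 9.16% in untreated and 1.36%, 6.08% and 6.47% in tamoxifen (mean difference -2.56 percentage points, exact permutation p = 0.5). Both shares were lower in tamoxifen within 3 of 3 numbers. These differences moved most with replicate number 1: without tamoxifen replicate 1 they were 2.57 (Ccnd3), -1.65 (Ccnd1) and -0.92 (Ccnd2) percentage points, and without untreated replicate 1 they were 18.0, -13.4 and -4.59. Leaving out any other single sample gave 6.71 to 16.4, -5.20 to -12.9 and -1.51 to -3.48.

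**Figure D2:**
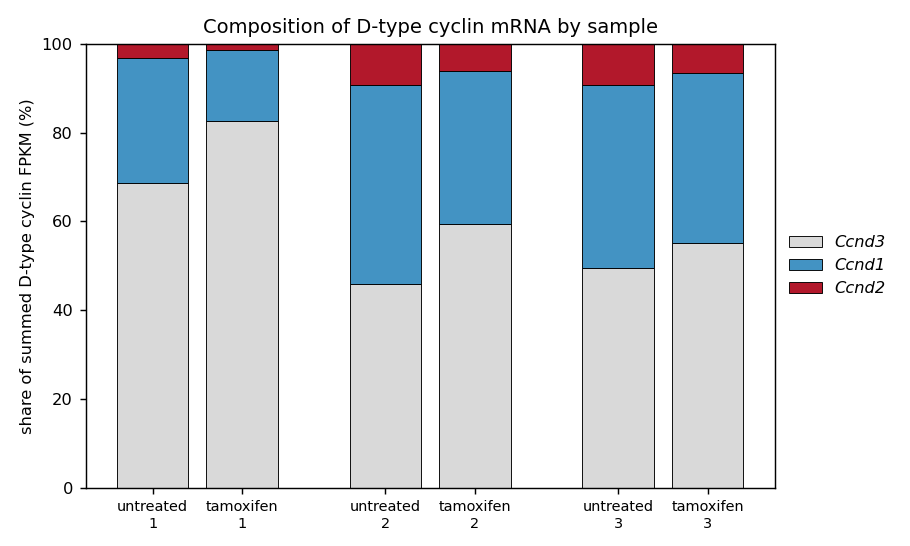
Share of the summed D-type cyclin FPKM held by Ccnd3, Ccnd1 and Ccnd2 in each sample (%, stacked bars from 0 to 100, samples paired by replicate number). The Ccnd3 part is taller in the tamoxifen bar of each pair, from 68.6% to 82.7% in number 1, 45.9% to 59.4% in number 2 and 49.4% to 55.0% in number 3.

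The E-type genes differed widely in level, and neither passed the test. Ccne1 (chromosome 7, 38883003 to 38892509) was at 102.0, 86.9 and 97.4 FPKM in untreated and at 99.96, 94.2 and 117.0 FPKM in tamoxifen replicates 1, 2 and 3. It had the narrowest range of the 8, with its highest sample at 1.35 times its lowest, and the groups overlapped. Its log2 fold change was 0.12 (95% interval -0.37 to 0.60 without the block and -0.11 to 0.34 with it, limma adjusted p = 0.999 and 0.447). Ccne2 (chromosome 4, 11118501 to 11131926) was at 3.46, 6.71 and 8.99 FPKM in untreated and at 2.45, 5.96 and 7.68 FPKM in tamoxifen replicates 1, 2 and 3. As with Ccnd1 and Ccnd2, replicate number 1 was low in both groups and the tamoxifen sample was the lower within 3 of 3 numbers. The log2 fold change of -0.29 did not pass the test (SE 0.478, limma adjusted p = 0.999; SE 0.124 and adjusted p = 0.165 with the block). Ccne2 overlaps Ints8, whose log2 difference was -0.17 in number 1 and 0.33 and 0.37 in numbers 2 and 3, unlike that of Ccne2. Ccne1 held 96.7%, 92.8% and 91.6% of the E-type sum in untreated and 97.6%, 94.0% and 93.8% in tamoxifen samples, a mean difference of 1.47 percentage points (exact permutation p = 0.5) that ranged from 0.244 without tamoxifen replicate 1 to 2.98 without untreated replicate 1.

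Ccna2 (chromosome 3, 36463787 to 36470918), the cyclin of S phase and G2, was at 80.3, 56.8 and 79.1 FPKM in untreated and at 83.4, 70.8 and 90.6 FPKM in tamoxifen replicates 1, 2 and 3. Replicate number 2 was low in both groups, the tamoxifen sample was the higher within 3 of 3 numbers, and the groups overlapped. Its log2 fold change was 0.19 (SE 0.234, limma adjusted p = 0.999; SE 0.095 and adjusted p = 0.223 with the block). Ccna2 overlaps Exosc9, whose log2 values were 0.10 to 0.15 higher in tamoxifen within each number.

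The B-type genes had the same order of replicate numbers in part, with number 2 lowest in both groups. Ccnb1 (chromosome 13, 101548694 to 101556441) was at 107.3, 79.0 and 98.0 FPKM in untreated and at 105.1, 86.7 and 106.2 FPKM in tamoxifen replicates 1, 2 and 3. Ccnb1 had a log2 fold change of 0.07 (95% interval -0.44 to 0.59 without the block and -0.14 to 0.28 with it, limma adjusted p = 0.999 and 0.614), and its direction was not shared by the 3 numbers. Ccnb2 (chromosome 9, 70255496 to 70269361) was at 116.5, 59.2 and 74.5 FPKM in untreated and at 131.3, 72.2 and 87.3 FPKM in tamoxifen replicates 1, 2 and 3. Replicate number 1 stood above the other numbers in both groups, and the tamoxifen sample was the higher within 3 of 3 numbers. The log2 fold change of 0.23 did not pass the test (SE 0.326, limma adjusted p = 0.999; SE 0.088 and adjusted p = 0.133 with the block). Ccnb1 held 47.9%, 57.2% and 56.8% of the B-type sum in untreated and 44.5%, 54.6% and 54.9% in tamoxifen samples, with a mean difference of -2.67 percentage points (exact permutation p = 0.5). RefSeq annotates a pseudogene copy of Ccnd3, Ccnb1 and Ccnb2, and fragments that match a copy could have been split between loci.

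Over the 8 cyclins, 0 passed the test without the block in either direction, and 0 had an unadjusted p under 0.05. Of all tested genes 0.0231% were called higher and 0.00769% lower (3 and 1 genes) in this limma fit, and 623 genes, 4.79%, had an unadjusted p under 0.05. With the block, 1 of 8 was called lower (Ccnd2) and 0 higher. Of all tested genes, 6.06% were called lower and 4.33% higher (787 and 563 genes) in this blocked limma fit. There 5 of 8 cyclins had an unadjusted p under 0.05 (Ccnd1, Ccnd2, Ccnd3, Ccne2 and Ccnb2). So had 3873 of the 12997 tested genes. After TPM scaling with the block, 0 of 8 were called, and the balance of all genes turned to 2.59% lower and 3.31% higher (336 and 430 genes). The median log2 fold change of the 8 was 0.10, beside -0.02 over all tested genes. After TPM scaling it was 0.20 beside 0.08, and after quantile normalization 0.026 beside 0.011. Within replicate numbers, 3 of 8 cyclins were lower in tamoxifen in all 3 (Ccnd1, Ccnd2 and Ccne2) and 3 of 8 higher in all 3 (Ccnd3, Ccna2 and Ccnb2), where 28.2% and 24.8% of all tested genes were lower and higher in all 3.

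**Figure D3:**
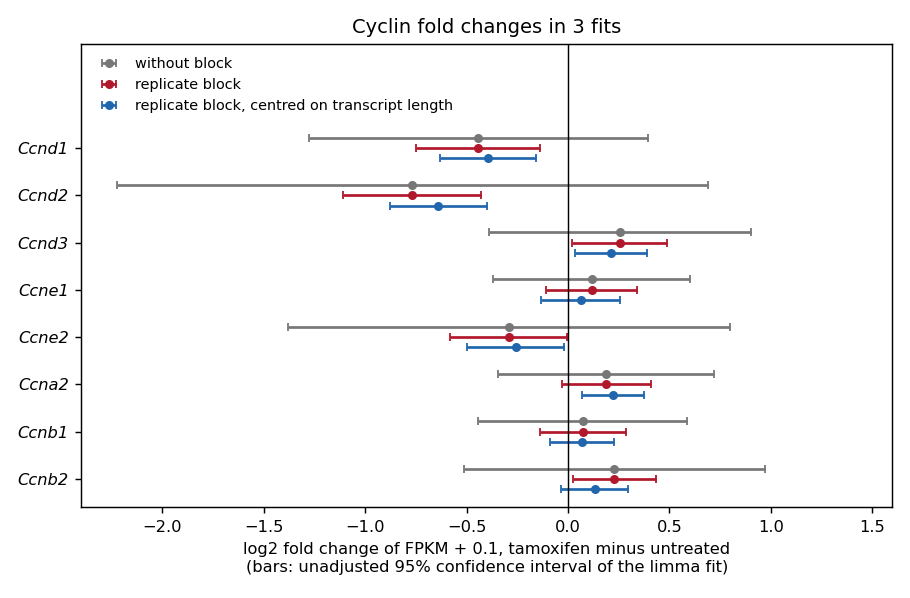
Log2 fold change of each cyclin, tamoxifen minus untreated, on the log2(FPKM + 0.1) scale, with unadjusted 95% confidence intervals from 3 limma fits: without a block (grey), with replicate number as a block (red) and with the block after centring on transcript length (blue). The grey intervals of all 8 genes cross 0, and the red intervals of Ccnd1, Ccnd2, Ccnd3, Ccne2 and Ccnb2 do not. Ccnd2 and Ccnd1 lie farthest below 0 in all 3 fits.

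Replicate number separated the cyclins more than treatment did. In the fit with both terms, 7 of 8 differed between replicate numbers (all except Ccne1, limma adjusted p = 0.223), where 62.8% of all tested genes did. This count was 4 with quantile normalization, 4 without untreated replicate 2 and 0 with no filter on low values. Replicate number held more of the sum of squares than treatment in all 8, as it did in 86.5% of tested genes. It has 3 levels against 2 for treatment, which favours it in this measure. Its part ranged from 58.4% for Ccne1 to 93.8% for Ccne2. The mean of the 2 samples with replicate number 3 was 3.89 times that of number 1 for Ccnd2, 2.82 times for Ccne2 and 2.01 times for Ccnd1, and was 0.653 times for Ccnb2 and 0.767 times for Ccnd3. The study describes its RNA-seq replicates as biological, and whether a number marks a shared culture or day is not given in the sources used here.

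The cyclins formed groups by their pattern over samples. Across the 6 samples, which share 3 replicate numbers and 2 treatments, Pearson's r of log2 values was 0.98 between Ccnd1 and Ccnd2, 0.96 between Ccnd1 and Ccne2 and 0.98 between Ccnd2 and Ccne2. Among Ccnd3, Ccna2, Ccnb1 and Ccnb2 all 6 pairs were positive, from 0.70 between Ccna2 and Ccnb2 to 0.96 between Ccnd3 and Ccnb2, with 0.80 between Ccnd3 and Ccna2, 0.84 between Ccnb1 and Ccnb2, 0.86 between Ccnd3 and Ccnb1 and 0.94 between Ccna2 and Ccnb1. Ccnd2 and Ccnb2 ran in opposite directions, at -0.87. Ccne1 was closest to Ccna2 among the cyclins, at 0.90. The tested gene most like each cyclin was Jmjd1c for Ccnd1 (r = 0.999), Zc3h12c for Ccnd2 (0.997), Plrg1 for Ccnd3 (0.999), Zic2 for Ccne1 (0.986), Lats1 for Ccne2 (0.999), Ttk for Ccna2 (0.999), Srfbp1 for Ccnb1 (0.990) and Kif22 for Ccnb2 (0.999). Such values were common, since between 217 and 776 genes reached r of at least 0.95 with each cyclin apart from Ccne1, which had 13.

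Over all tested genes, differences also followed transcript length. The median log2 fold change, tamoxifen minus untreated, went from 0.18 in the shortest of 8 length bins (up to 1351 bases) to -0.20 in the longest (from 5733 bases), and the median log2 difference of replicate numbers 2 and 3 from 1 went from -0.53 to 0.49. Ccnd2 has the longest transcript of the 8 (5701 bases), Ccnd1 the next (3740) and Ccnb2 the shortest (1541). Ccne2 (3006 bases) and Ccna2 (2964 bases) fell in the same bin, of median -0.04, with log2 fold changes of -0.29 and 0.19. The medians of the length bins of Ccnd2, Ccnd1 and Ccnb2 were -0.12, -0.07 and 0.09. The log2 fold changes of these genes were -0.77, -0.44 and 0.23. After centring on length, an alternative added after the data were seen that used the 11973 genes with a length, the log2 fold changes were -0.64 for Ccnd2 (adjusted p = 0.0127 with the block in limma) and -0.39 for Ccnd1 (adjusted p = 0.0452). This made 2 of 8 cyclins lower, where 7.76% of all genes in that fit were. The other 6 did not pass, with Ccna2 at 0.22 (adjusted p = 0.0659) and Ccnb2 at 0.13 (adjusted p = 0.237), and 6 of 8 still differed between replicate numbers, where 59.7% of genes did. Over 8 bins of transcript GC content, the median log2 difference of replicate numbers 2 and 3 from 1 went from 0.44 (lowest GC) to -0.36 (highest). The median log2 fold changes, tamoxifen minus untreated, lay between -0.07 and 0.005 in these GC bins. Ccne2 (36.3% GC) fell in the lowest GC bin. The part of transcript length or GC content in the cyclin differences was not tested. Nor was that of RNA quality or library preparation in these length and GC differences.

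**Figure D4:**
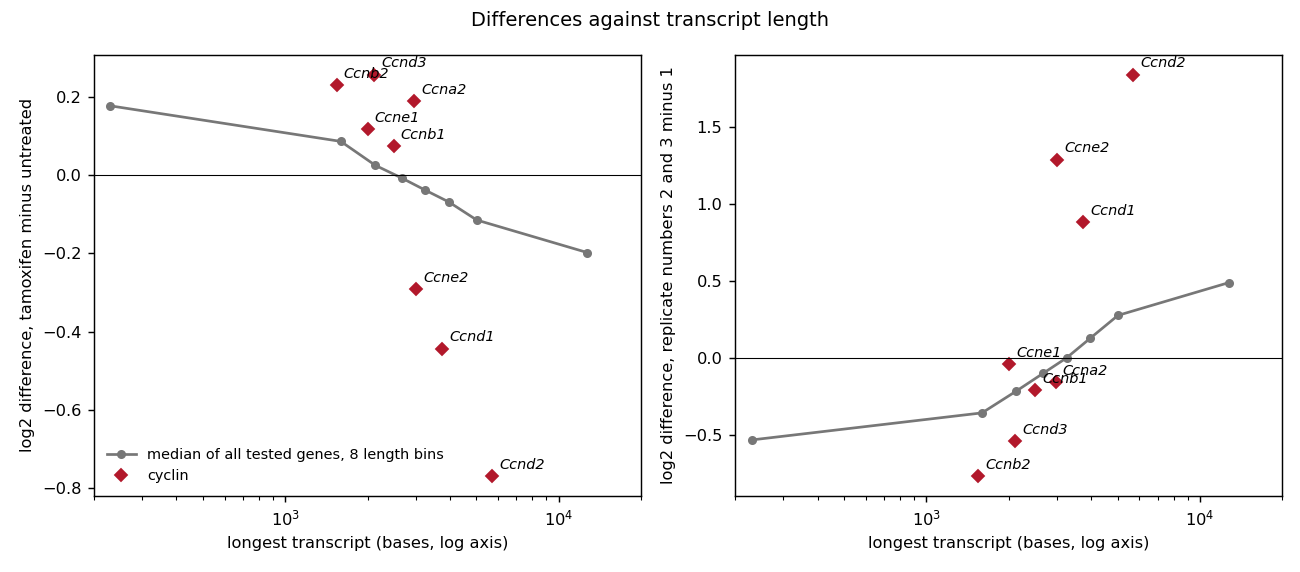
Log2 difference, tamoxifen minus untreated (left) and replicate numbers 2 and 3 minus 1 (right), against the longest annotated transcript in bases (log axis), with the medians of all tested genes in 8 length bins as a grey line and the 8 cyclins as red diamonds. The medians run from 0.18 to -0.20 on the left and from -0.53 to 0.49 on the right. In both panels Ccnd1, Ccnd2, Ccnd3, Ccne2 and Ccnb2 lie farther from 0 than their bin medians, on the same side.

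Markers of other cells were summed beside these values. Of 12 fibroblast genes, for the feeder cells on which the line is kept, 11 were tested, and their summed FPKM was 123.1 and 145.5 in untreated and tamoxifen replicate 1 against 209.3 to 261.3 in the other 4 samples. Ccnd1, Ccnd2 and Ccne2 were likewise low in replicate number 1. Fn1 had the highest value of the 12 in every sample, from 56.3 to 142.8 FPKM, and so weighed most in the sums. Acta2 and Twist1 were not lowest in number 1. Their means in numbers 1, 2 and 3 were 27.3, 20.7 and 49.6 FPKM (Acta2) and 4.70, 4.32 and 5.95 FPKM (Twist1). Col1a1 was at 15.6 FPKM in untreated replicate 1 and 40.3 FPKM in untreated replicate 2, and Lum, the one marker at 0 in any sample, was at 0 in untreated replicate 1 and at most 0.202 FPKM elsewhere. Between treatments 1 fibroblast gene was called, with the block, Twist1 (log2 fold change -0.84, limma adjusted p = 0.0161). Of 12 markers of differentiated lineages 9 were tested, of which 2 had log2 fold changes above 0. With the block 6 were called lower, beside 6.06% of all tested genes. Among these 6 were the neural genes Pax6 (-1.73, adjusted p = 0.0103) and Sox1 (-0.97, adjusted p = 0.0153). The endoderm genes Gata6 (-1.43, adjusted p = 0.0174) and Gata4 (-0.85, adjusted p = 0.0359) were also among them. After TPM scaling with the block 3 of the 9 were called lower (Gata6, Pax6 and Sox1), beside 2.59% of all tested genes. The summed FPKM of the 12 was 39.6 to 58.6 in untreated and 31.0 to 36.1 in tamoxifen samples. That of 8 ESC markers was 2703 to 3717 in untreated and 2982 to 5238 in tamoxifen samples, highest in replicate 1 of each group. Dppa5a weighed most in it, at 1401 to 2221 FPKM in untreated and 1582 to 3534 FPKM in tamoxifen samples. Log2 fold changes were above 0 for 6 of the 8 ESC markers and below 0 for 2. With the values as deposited, 0 of these 8 were called without or with the block. After TPM scaling with the block 1 of them, Nanog, was called higher, beside 3.31% of all tested genes. The part of other cells in the cyclin values was not tested.

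The kinase partners of the cyclins did not pass the test with or without the block. Cdk4, the partner of D-type cyclins, had means of 264.3 ± 27.2 and 297.9 ± 30.5 FPKM (SD, n = 3) in untreated and tamoxifen samples (log2 fold change 0.17, limma adjusted p = 0.249 with the block), and Cdk6 had 6.18 ± 1.43 and 4.96 ± 0.412 FPKM (-0.29, adjusted p = 0.188). Cdk2 had 36.2 ± 2.71 and 39.8 ± 2.52 FPKM (0.14, adjusted p = 0.408), and Cdk1, the mitotic kinase, 47.9 ± 14.6 and 55.6 ± 12.9 FPKM (0.24, adjusted p = 0.142). Of the 6 kinase genes, Mnat1, a subunit of the CDK-activating kinase, was called higher with the block (0.45, adjusted p = 0.0380).

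Cdkn1a, which encodes the CDK inhibitor p21, was the 1 of 7 inhibitor genes called with the block, and lower. It was at 79.9, 73.7 and 82.3 FPKM in untreated and at 55.6, 52.5 and 49.5 FPKM in tamoxifen replicates 1, 2 and 3. The log2 fold change was -0.58 (SE 0.0950, limma adjusted p = 0.0134 with the block, 0.740 without it). The median over the 7 inhibitor genes was -0.35, with 6 of 7 below 0, or 4 of 7 after TPM scaling. After centring on length, 3 of 7 were called lower with the block, beside 7.76% of all genes in that fit. These were Cdkn1a, Cdkn2a and Cdkn2b, the latter 2 named after their values were seen. Among 16 cyclin genes outside the 8, of which 14 were tested, 1 was called with the block: Ccng1, a p53 target that encodes cyclin G1, was at 132.2, 173.0 and 233.8 FPKM in untreated and at 78.4, 103.7 and 135.9 FPKM in tamoxifen samples (log2 fold change -0.76, limma adjusted p = 0.00458). Its groups overlapped in range, it was lower in 3 of 3 numbers, and it was called under all 3 scalings tried with the block, whereas Cdkn1a was not called after TPM scaling and Mnat1 was lost there as well.

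The genes that follow the cyclins in the cycle had mostly small positive differences. All 24 genes of replication licensing and DNA synthesis had log2 fold changes above 0, with a median of 0.20, and with the block 3 were called higher: Gins1 (0.40, limma adjusted p = 0.0335), a replication helicase subunit, Tk1 (0.40, adjusted p = 0.0412), thymidine kinase, and Gmnn (0.35, adjusted p = 0.0462), which encodes the licensing inhibitor geminin. With quantile normalization 20 of the 24 were above 0 and Gins1 alone of these 3 was called, after TPM scaling none was, and after centring on length 23 of 24 were above 0 and none of these 3 was called. Of 25 mitotic genes 18 were above 0, with a median of 0.13, and 1 was called higher with the block, Cenpa (0.38, adjusted p = 0.0377), the centromeric histone H3 variant, which was not called under any of these 3 scalings. Of 11 genes for the destruction of cyclins 1 was called higher with the block, Ube2s (0.41, adjusted p = 0.0355), a ubiquitin-conjugating enzyme of the anaphase-promoting complex, which was not called under these scalings either. With the block and the values as deposited, 0 of 13 pocket protein and E2F genes (median -0.09, or 0.01 after TPM scaling) were called. The same held for 0 of 5 genes for adding or removing the inhibitory phosphorylation of CDKs (median 0.23). Other scalings with the block called Rbl2 lower (TPM) and Tfdp2 higher (length centring). They also called Pkmyt1, a kinase for the inhibitory phosphorylation, higher (quantile normalization and length centring). Cdc25a, a phosphatase that removes it, was called higher with length centring. All of these are named here after their values were seen. Rbl2 was at 0 FPKM in tamoxifen replicate 1 and at 1.81 to 2.15 FPKM in all other samples. Without the block 0 genes of any of these lists were called, and shares of called genes near 4.33% higher and 6.06% lower are those of all tested genes.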

How the data were processed

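PolyA-selected, directional libraries were made from 6 Kdm2b fl/fl ESC samples and sequenced as paired 51 bp reads. Mapping to mm9 was done by the authors with Tophat2 (0.5) and quantification with cuffdiff (2.1.1) on refGene models, per the study's methods and the submitters' processing notes. The deposited tables hold an FPKM and its interval for each of 23874 rows in every sample. ChIP-seq samples were not analysed here. Groups and replicate numbers were taken from the sample labels.

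Rows were summed by gene name, and 6 names were dropped because a sample had a failed status for them. Genes with at least 0.5 FPKM in at least 3 of 6 samples were log2-transformed after adding 0.1 and tested in R 4.3.3 with limma 3.58.1 (lmFit, eBayes with trend), using Benjamini-Hochberg adjustment over all tested genes and a threshold of 0.05. A fold change on this scale understates that of low genes. The replicate number was then added as a block. Deviations from group means correlated across genes at 0.544, 0.605 and 0.506 between samples of the same number and at -0.105 to -0.379 between others, and every same-number value is above 0.1, so the numbers were treated as pairing the samples. The study calls these replicates biological, and the labels name no separate cultures, so p-values measure the spread between these samples. Shares were compared with exact permutation tests (Python 3.11.15, scipy 1.17.1).

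FPKM totals were 549379 to 1045710, and loci under 300 bp held 23.9% to 67.7% of them, least in both samples of replicate number 1. Read counts are not in the tables. Steps of low values gave a depth of 0.659 to 0.956 relative to untreated replicate 1. About 50% of the genes used lay within 1% of the median ratio of their sample, so no interval that needs counts is given. Promoter windows were taken from RefSeq, and lengths from the longest GENCODE transcript on NCBIM37.

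The fits were tested on simulated data. The 8 cyclins and all gene lists were chosen with earlier results of these data known. Besides the cyclins and Cdk1, Cdk2, Cdk4 and Cdk6, the genes named from each list are those past the threshold with or without the block, up to 4 by size of fold change. Col1a1, Lum, Fn1, Acta2, Dppa5a and the genes called only under another scaling were added after their values were seen. Kdm2b and genes overlapping or most like a cyclin are given as context. Alternatives were other pseudocounts, filters and scalings, leaving out samples, and, added after seeing the data, failed rows kept as 0, further fits with the block and centring on transcript length or GC content.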

Additional observations from a re-analysis of the deposited data

How the results depend on the processing

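The count of cyclins called lower, 0 without the block, was 1 with the replicate block, and also 1 with the block and quantile normalization, pseudocount 1, pseudocount 0.01 or centring on transcript GC content. It was 2 with the block and the stricter filter (1 FPKM or more in every sample), or centring on transcript length. Leaving out a replicate number with the block gave 0 to 1, without number 2 being the 0. Ccnd2 was called in 7 of 10 settings with the block (limma adjusted p from 0.000736 to 0.249) and was above 0.05 with TPM scaling, no filter and eBayes without trend (adjusted p = 0.0578, 0.249 and 0.0502). Ccnd1 was called in 2 of the 10 (0.0147 to 0.375). The other 6 were called in none of them. The count of cyclins called higher was 0 in every alternative run. In these settings the block changed no call among the cyclins beyond those of Ccnd2 and Ccnd1.

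Genes called higher, 3 in all, numbered 1 with no filter, 0 with the stricter filter, 563 with the block, 558 with the block and quantile normalization, 430 with the block and TPM scaling, 743 with the block and length centring and 656 with the block and GC centring. Genes called lower, 1 in all, numbered 0 with pseudocount 1, no filter, the stricter filter or GC centring, and with the block 787, 586 with quantile normalization, 336 with TPM scaling, 929 with length centring and 774 with GC centring. Leaving out 1 sample at a time gave 2 to 5 higher and 0 to 7 lower, and leaving out a replicate number with the block gave 744, 36 and 359 higher and 1011, 43 and 478 lower without numbers 1, 2 and 3. These moves in the number of calls were not traced to a cause, which was not tested.

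The median log2 fold change of the 8 cyclins, 0.10, was 0.20 after TPM scaling with or without the block (0.08 over all genes), 0.026 after quantile normalization, and -0.020 to 0.18 with 1 sample left out, negative without untreated replicate 2. The count of cyclins differing between replicate numbers, 7, was 4 with quantile normalization, 0 with no filter and 4 to 7 with 1 sample left out. With 1 sample left out, the log2 fold change of Ccne2 ranged from -0.67 to 0.19, positive without tamoxifen replicate 1 and, at 0.00324, without untreated replicate 3. That of Ccnb1 ranged from -0.052 (without untreated replicate 2) to 0.17, that of Ccnb2 from -0.012 (without tamoxifen replicate 1) to 0.50, and the share difference of Ccnb1 from -5.69 to 0.747 percentage points, the latter without tamoxifen replicate 1. The other 5 cyclins kept their sign in all 30 alternatives. With 3 samples a group and no counts, a difference of the size seen for Ccnb1 or Ccne1 could not be resolved.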

Other observations

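The deposited confidence intervals could not be used as errors of the cyclin values. Of the 48 FPKM of the 8 cyclins, 23 lay outside the interval deposited in the same row, and 25 inside it. The half-width of the interval ranged from 3.39% to 19.2% of its FPKM, with a median of 4.16%, and was widest for Ccne2, the least abundant of the 8.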
